A study of Rattus norvegicus with 8 samples.

Results

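In all, 9 genes that mark tenocytes, the resident fibroblasts of tendon, or that tendon expresses at a high level were followed in the rat Achilles tendon after a run: *Scx*, *Mkx*, *Tnmd*, *Thbs4*, *Comp*, *Cilp*, *Cilp2*, *Prg4*, and *Chad*. They were taken by gene symbol, and are 9 of the 32883 genes in the deposited count table and 9 of the 13937 genes that passed the filter on low counts. RNA with a polyadenylate tail was sequenced from the right Achilles tendon of 8 male wild-type (WT) SD rats, 8 to 10 weeks old, with 1 library per rat. In the 12 h p.r. group, 4 rats ran on a treadmill for 1 hour, prompted by airflow and where needed by a mild electric stimulus, and were killed 12 hours post-running (p.r.). In the naïve control group (NC), 4 rats stayed in their cages and were killed at the same time. The piece sequenced was whole tendon and not sorted cells, and neither group carried a transgene. The comparison asks which tendon genes differ between a rested tendon and a tendon 12 hours after a run. Rats are named below by group and by the replicate number of the labels, such as running rat 3 or NC rat 4.

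*Scx* (scleraxis) and *Mkx* (mohawk) encode transcription factors that set up and maintain the tendon fibroblast programme, and *Scx* lies downstream of TGF-beta signaling and of mechanical load. *Tnmd* (tenomodulin), a transmembrane glycoprotein of mature tenocytes, is a known target of *Scx*. The other genes encode secreted proteins of the matrix around the collagen fibrils: the pentameric glycoproteins thrombospondin 4 (*Thbs4*) and cartilage oligomeric matrix protein (*Comp*), the cartilage intermediate layer proteins (*Cilp* and *Cilp2*), the leucine-rich chondroadherin (*Chad*), and lubricin (*Prg4*), the boundary lubricant of gliding surfaces.

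The libraries held between 7350509 and 12951397 reads counted on genes, which were scaled by TMM factors (trimmed mean of M values) and are given as CPM, the count of a gene relative to the scaled library size. An expression of 1 CPM stood for 7.59 to 13.2 reads. Running rat 3 stood apart from the other 7 rats. Its 8 skeletal muscle markers summed to 51640 CPM, against 2480 to 2868 in the other running rats and 2372 to 9791 in the NC rats, and it was the highest rat for 6 of the 8. *Acta1*, the skeletal muscle actin, was at 15730 CPM in that rat and at 712 to 2823 elsewhere, and *Ckm*, the muscle creatine kinase, was at 8338 against 114 to 1060. The markers not highest in running rat 3 were *Myh7*, at 51.2 CPM there, and *Mb*, at 283. Both lay below all NC rats, which had 238 to 757 CPM of *Myh7* and 308 to 773 of *Mb*. The other running rats had 1.55 to 529 and 17.9 to 339 CPM. The 8 markers of tenocytes and tendon include *Scx*, *Mkx*, *Tnmd*, *Thbs4*, and *Comp* of the 9 genes. They were present in every rat but summed to 13930 CPM in running rat 3, against 32240 to 43810 in the other running rats and 24020 to 36650 in the NC rats. *Col1a1* was the largest part, at 11090 CPM in running rat 3, 24140 to 37600 in the other running rats, and 19650 to 30610 in the NC rats. *Fmod* was at 1194, 2890 to 3673, and 2421 to 3756 CPM, and *Kera* at 427, 445 to 766, and 376 to 692. Running rat 3 was the lowest rat for 3 of the 8. The share of all counts taken by the 9 genes was 0.212% in running rat 3, 0.725 to 1.10% in the other running rats, and 0.509 to 0.697% in the NC rats. In a bulk sample, fewer tenocytes and less RNA of a gene per tenocyte cannot be told apart. The part of muscle RNA in the results below was not tested beyond a fit with a muscle marker score as a covariate. Fold changes printed for tendon genes that move by over 1.5 times or cross a threshold without running rat 3 are given with and without it.

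Markers of other cell types were also summed in each rat. The cartilage list summed to 231 CPM in running rat 3, to 745 to 858 in the other running rats, and to 382 to 1312 in the NC rats. Its first gene, *Col2a1*, was uneven, at 594 CPM in NC rat 3 and 167 in running rat 1 but at 1.79 to 10.8 in the other 6 rats, and *Acan*, the aggrecan gene, was at 9.996 CPM in running rat 3 and at 34.3 to 128 elsewhere. *Ucma* took the largest part of the cartilage sum in every rat but NC rat 3. It was at 213 CPM in running rat 3, 557 to 626 in the other running rats, and 316 to 554 in the NC rats. The bone list was at 1606 CPM in NC rat 3 and 890 in running rat 1, and at 152 to 327 in the other 6 rats. The leukocyte list ran from 618 to 2543 CPM in the running rats and from 875 to 3787 in the NC rats, with running rat 3 and NC rat 2 the lowest of their groups. The endothelial list was even, at 1171 to 1428 CPM in the running rats and 1244 to 1351 in the NC rats. For adipocyte markers, the running and NC rats had 2763 to 6788 and 3920 to 6675 CPM. For Schwann cell markers they had 936 to 1253 and 986 to 1659. For smooth muscle and pericyte markers they had 1861 to 3817 and 1691 to 2117. Running rat 3 was the one at 3817, and the other running rats reached at most 2276. For erythroid markers the ranges were 190 to 804 and 241 to 1078.

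After the run, none of the 9 genes differed from the NC group at an adjusted p value under 0.05 by the quasi-likelihood test of edgeR, where p values were adjusted over every gene tested by the method of Benjamini and Hochberg. Of all 13937 genes tested, 1 did (0.00718%). At an unadjusted p value under 0.05, 3 of the 9 genes were higher at 12 hours p.r. (*Scx*, *Mkx*, and *Thbs4*) and 0 were lower, where 5.44% of all genes were higher and 4.08% were lower. Of the 9 fold changes 7 were positive and 2 were negative (*Tnmd* and *Prg4*), and their median on the log2 scale was 0.47, against 0.02 over all genes tested. That median was 0.115 when a muscle marker score was a covariate (all genes, 0.0105), 0.149 by limma on log2(FPKM + 1) (all genes, 0.0024), 0.108 without running rat 4, 0.289 without NC rat 1, and 0.311 without NC rat 4. Running rat 3 was the lowest running rat for each of the 9 genes, so higher fold changes without it follow from leaving it out. They are no separate evidence of a rise. Without it, the median of the 9 was 0.69 against 0.0043 over all genes. At an unadjusted p value under 0.05, 6 of the 9 were then higher (*Scx*, *Mkx*, *Thbs4*, *Comp*, *Cilp2*, and *Chad*), where 5.78% of all genes were. Still 0 of the 9 passed the adjusted threshold. The unadjusted count was 1 without running rat 2 (*Scx*), without running rat 4 (*Mkx*), or without NC rat 4 (*Scx*). The tests measure the spread between these rats, of which each group has 4.

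**Figure D1:**
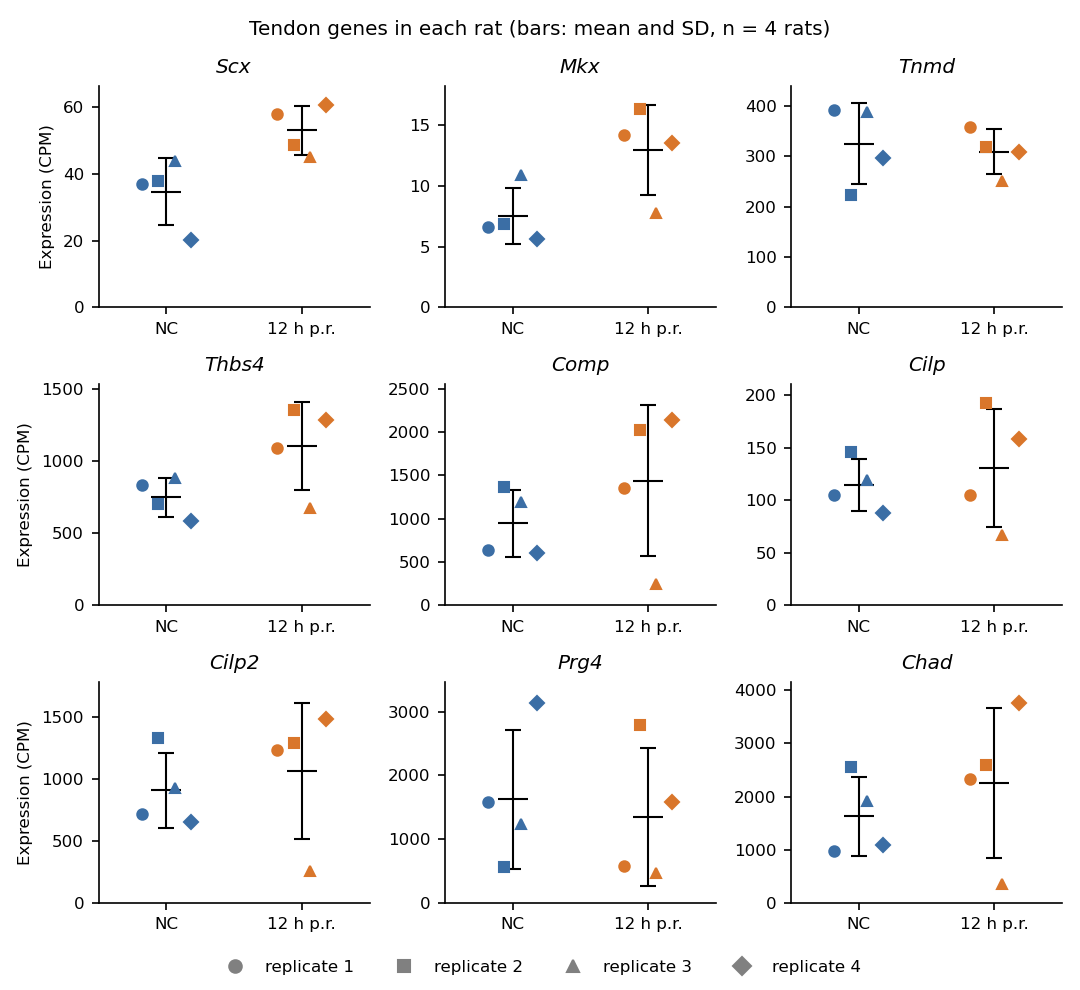
CPM of each of the 9 genes (y axes, linear from 0) in the 4 NC rats (blue) and the 4 rats at 12 h p.r. (orange). Each point is 1 rat with its replicate number as the marker shape, and the bars are the mean and SD. *Scx* is the gene whose groups do not overlap, and running rat 3 (orange triangle) lies far below the other running rats for *Comp*, *Cilp2*, and *Chad*.

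*Scx* was higher in every running rat than in any NC rat. It was at 58.0, 48.7, 45.2, and 60.6 CPM in running rats 1 to 4 and at 36.9, 37.8, 43.9, and 20.3 CPM in NC rats 1 to 4. This separation was found for 1 of the 9 genes and for 3.52% of all genes tested. The means were 53.2 ± 7.34 and 34.7 ± 10.1 CPM (SD, n = 4 each), a log2 fold change of 0.62 (SE 0.22, 95% interval 0.13 to 1.10, edgeR unadjusted p = 0.0191, adjusted p = 0.452). The exact permutation test on log2(CPM + 0.5), 2-sided, gave p = 0.0286, the smallest value that 4 rats against 4 can give. The closest rats, running rat 3 with 380 reads and NC rat 3 with 581 reads, were 1.34 CPM apart, which is less than the counting SD of that difference (2.95 CPM). Without running rat 3 the log2 fold change was 0.69 (unadjusted p = 0.0154), without running rat 4 it was 0.55 (unadjusted p = 0.0523), and without NC rat 4, the lowest rat, it was 0.43 (unadjusted p = 0.0119). The gene *Bop1*, a ribosome biogenesis factor that overlaps *Scx* in the RefSeq gene table, was at 24.9 to 31.9 CPM in the running rats and 27.4 to 32.2 in the NC rats, a log2 fold change of 0.0035 (SE 0.10).

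*Mkx*, the second transcription factor, was the least abundant of the 9 genes, with 56 to 144 reads per rat. The running rats had 14.2, 16.3, 7.74, and 13.5 CPM and the NC rats 6.65, 6.87, 10.9, and 5.61 CPM. Running rats 1, 2, and 4 were above all NC rats, while running rat 3 was below NC rat 3, so the groups overlapped by that pair. The log2 fold change was 0.78 (SE 0.27, 95% interval 0.16 to 1.40), the highest of the 9, with an edgeR unadjusted p = 0.0190 and an adjusted p = 0.452. It was 0.96 (SE 0.23) without running rat 3, with an unadjusted p = 0.00252 and an adjusted p = 0.349. The exact permutation test over all 8 rats gave p = 0.0571. The edgeR unadjusted p values were 0.0547 without running rat 2 and 0.0521 without NC rat 4.

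*Tnmd*, the known *Scx* target, lay at overlapping levels in the 2 groups. Its CPM values were 358, 319, 250, and 309 in running rats 1 to 4 and 392, 224, 388, and 296 in NC rats 1 to 4. All running values fell inside the range of the NC rats. The means were 309 ± 44.4 and 325 ± 80.8 CPM (SD, n = 4 each), and the log2 fold change was -0.07 (SE 0.20, 95% interval -0.51 to 0.37, edgeR adjusted p = 0.929). It was 0.02 without running rat 3. *Tnmd* was the steadiest of the 9 genes, with the highest rat at 1.75 times the lowest.

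Within each rat, *Tnmd* was then set against *Scx*, as the ratio of their CPM values. The ratio was 6.13, 6.48, 5.49, and 5.07 in running rats 1 to 4 and 10.5, 5.86, 8.76, and 14.2 in NC rats 1 to 4. NC rat 2 fell inside the range of the running rats and the other NC rats were above it. On the log2 scale the ratio was 2.53 ± 0.159 in the running group and 3.23 ± 0.535 in the NC group (SD, n = 4 each), a difference of -0.70 (exact permutation test, 2-sided, p = 0.0857). The difference was between -0.92 without NC rat 2 and -0.50 without NC rat 4. The ratio of *Mkx* to *Scx* differed by 0.09 on the log2 scale (exact permutation test, 2-sided, p = 0.743), with overlapping groups, and by 0.24 without running rat 3 and -0.07 without running rat 2.

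**Figure D2:**
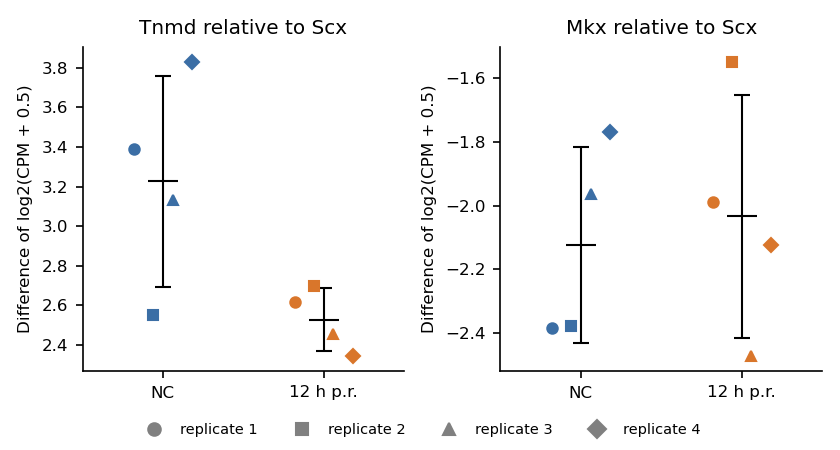
Difference of log2(CPM + 0.5) within each rat between *Tnmd* and *Scx* (left) and between *Mkx* and *Scx* (right); the y axes do not start at 0. Points are rats, marker shapes are replicate numbers, and bars are the mean and SD of 4 rats. *Tnmd* relative to *Scx* is lower in all running rats than in NC rats 1, 3, and 4, and overlaps with NC rat 2; *Mkx* relative to *Scx* overlaps between the groups.

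The thrombospondin family members *Thbs4* and *Comp*, which bind collagens in the matrix, were both higher in running rats 1, 2, and 4 than the mean of the NC rats. *Thbs4* was at 1095, 1359, 676, and 1285 CPM in running rats 1 to 4 and at 834, 701, 881, and 582 CPM in NC rats 1 to 4. Running rats 1, 2, and 4 were above all NC rats and running rat 3 was below all but NC rat 4. The *Thbs4* log2 fold change was 0.56 (SE 0.23, 95% interval 0.03 to 1.09, edgeR unadjusted p = 0.0409, adjusted p = 0.506), and 0.73 without running rat 3 (unadjusted p = 0.00212, adjusted p = 0.340). The exact permutation test over 8 rats gave p = 0.114 for *Thbs4*. Its edgeR unadjusted p was also under 0.05 without NC rat 3, and ran from 0.0517 to 0.109 without any other rat.

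*Comp* reached 1348, 2029, 238, and 2134 CPM in running rats 1 to 4 and 630, 1362, 1194, and 605 CPM in NC rats 1 to 4. Running rats 2 and 4 were above all NC rats, running rat 1 was just below the highest NC rat, and running rat 3 was the lowest of all. With the means at 1437 ± 872 and 948 ± 388 CPM (SD, n = 4 each), the log2 fold change was 0.60 with an SE of nearly the same size (0.58, 95% interval -0.70 to 1.91, edgeR adjusted p = 0.771). Leaving out running rat 3 gave 0.95 (SE 0.32, unadjusted p = 0.0158, adjusted p = 0.402), and leaving out running rat 4 gave 0.35.

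*Chad*, a cell-binding matrix protein, had the widest spread of the 9 genes. The running rats had 2333, 2595, 350, and 3757 CPM and the NC rats 983, 2558, 1908, and 1081 CPM. As with *Comp*, running rats 2 and 4 were above all NC rats and running rat 3 was the lowest rat, and the highest rat had 10.75 times the lowest. The *Chad* log2 fold change was 0.47 (SE 0.60, 95% interval -0.89 to 1.83, edgeR adjusted p = 0.835), 0.83 without running rat 3 (unadjusted p = 0.0413, adjusted p = 0.438), 0.77 without NC rat 2, and 0.11 without running rat 4. *Acsf2*, which overlaps *Chad* in the RefSeq gene table, was at 20.6 to 34.1 CPM in the running rats and 27.7 to 36.2 in the NC rats.

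*Cilp* and *Cilp2* encode related proteins of the cartilage and tendon matrix but differed in level and in spread. *Cilp2* was at 1231, 1289, 258, and 1481 CPM in running rats 1 to 4 and at 715, 1329, 922, and 654 CPM in NC rats 1 to 4. Apart from running rat 3 the running rats sat at or near the top of the NC range. The *Cilp2* log2 fold change was 0.23 (SE 0.47, 95% interval -0.83 to 1.297, edgeR adjusted p = 0.904), 0.56 without running rat 3 (unadjusted p = 0.0459, adjusted p = 0.445), 0.03 without running rat 4, and 0.48 without NC rat 2. *Cilp* was at 105, 193, 66.5, and 158 CPM in the running rats and at 105, 146, 120, and 87.7 CPM in the NC rats, with overlap on both sides. The *Cilp* log2 fold change was 0.19 (SE 0.30, 95% interval -0.50 to 0.88, edgeR adjusted p = 0.874), 0.41 without running rat 3, and -0.06 without running rat 2.

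*Prg4*, lubricin, varied between rats of both groups. The running rats had 572, 2785, 465, and 1584 CPM and the NC rats 1582, 561, 1232, and 3130 CPM. Each group held rats near the bottom and near the top of the whole range, and the highest rat had 6.73 times the lowest. The log2 fold change was -0.27 (SE 0.65, 95% interval -1.73 to 1.19, edgeR adjusted p = 0.921), and it moved to 0.02 without running rat 3, to 0.27 without NC rat 4, and to -0.90 without running rat 2. The adjacent gene *Tpr*, a nuclear pore component on the opposite strand whose RefSeq span overlaps that of *Prg4*, was at 160, 281, 147, and 217 CPM in the running rats and 299, 174, 267, and 572 CPM in the NC rats. NC rat 4 was the highest rat and running rat 3 the lowest for both genes. The libraries were stranded, but whether the counting used the strand is not stated. How reads from any stretch shared by *Prg4* and *Tpr* were assigned therefore cannot be told here.

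**Figure D3:**
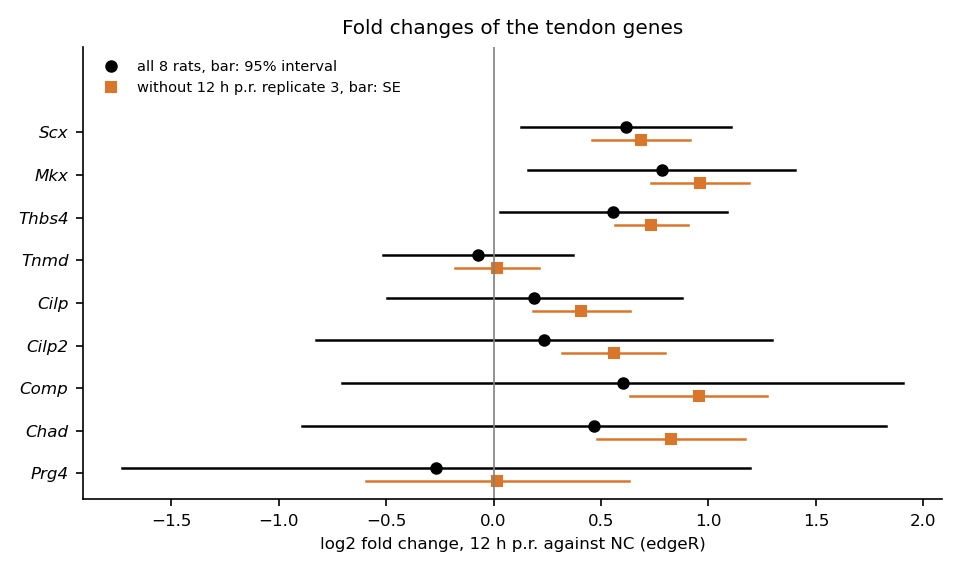
Log2 fold change of each gene at 12 h p.r. against NC (x axis; edgeR). Black circles are the fits with all 8 rats with their 95% intervals, and orange squares are the fits without 12 h p.r. replicate 3 with bars of 1 SE. The intervals of *Scx*, *Mkx*, and *Thbs4* lie above 0, and those of the other 6 genes include 0. The orange squares lie to the right of the black circles for all 9 genes. Replicate 3 was the lowest running rat for each of the 9, so this shift follows from leaving it out.

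The 9 genes did not vary to the same extent between rats of a group. The SD of log2(CPM + 0.5) within groups was 1.18 for *Chad*, 1.14 for *Comp*, 1.13 for *Prg4*, and 0.90 for *Cilp2*, each above at least 96.2% of the genes tested, whose median was 0.229. It was 0.53 for *Cilp*, 0.42 for *Mkx*, 0.38 for *Thbs4*, 0.37 for *Scx*, and 0.31 for *Tnmd*, the lowest of the 9, which was above 67.0% of the genes tested. Running rat 3 was the lowest of the 8 rats for *Comp*, *Cilp*, *Cilp2*, *Prg4*, and *Chad*, and NC rat 4 was the lowest for *Scx*, *Mkx*, and *Thbs4*. As a percentage of the median of the other running rats, running rat 3 had 11.7% of *Comp*, 13.5% of *Chad*, 19.97% of *Cilp2*, 29.4% of *Prg4*, 42.1% of *Cilp*, 52.6% of *Thbs4*, 54.3% of *Mkx*, 78.0% of *Scx*, and 78.6% of *Tnmd*. That rat also had the highest muscle marker sum, whose part in these values was not tested.

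**Figure D4:**
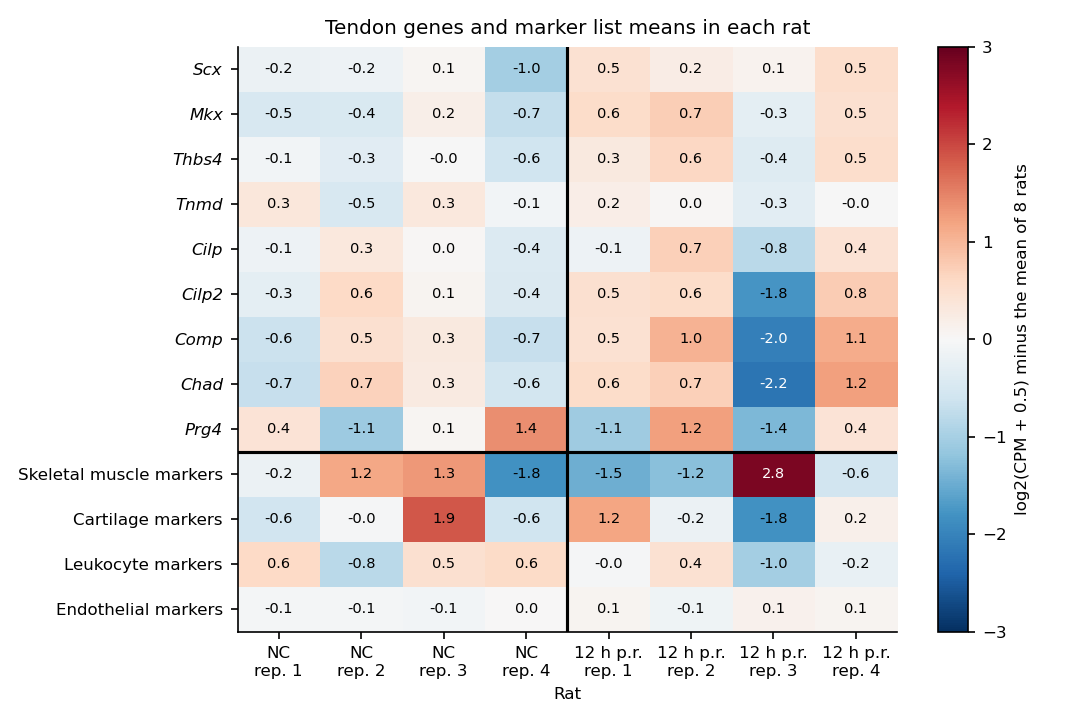
Each gene's log2(CPM + 0.5) minus its own mean over the 8 rats, and the same for the mean of each marker list (rows), in each rat (columns; rep., replicate number). Red is above and blue is below the mean, and the value is printed in each cell. *Comp*, *Cilp2*, and *Chad* are low and the skeletal muscle markers high in 12 h p.r. replicate 3, while *Scx*, *Mkx*, and *Thbs4* are lowest in NC replicate 4.

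How alike the genes ran over the 8 rats was measured as the root-mean-square difference between their log2(CPM + 0.5) values after each gene's mean was removed, in log2 units, where 0 is the same profile. The closest pair was *Comp* and *Chad* (0.169), followed by *Mkx* and *Thbs4* (0.198), *Cilp2* and *Chad* (0.287), *Scx* and *Thbs4* (0.288), *Comp* and *Cilp2* (0.297), and *Scx* and *Mkx* (0.304). *Scx* and *Tnmd* were 0.489 apart, and *Scx* and *Prg4* were the farthest pair (1.25). *Cilp* and *Cilp2* were 0.441 apart and *Thbs4* and *Comp* 0.736, so the closest partner of each of these genes was not its relative by sequence. The rats share their library composition across genes, and the low values of running rat 3 enter each of these distances. The distances are not scaled to a gene's own spread, so those of different genes are not on a common scale of likeness. That spread, as the root-mean-square about the gene's mean, ran from 0.27 for *Tnmd* to 1.03 for *Chad*. Among the other genes tested, the nearest were *Fgfrl1* (0.167) and *Sod3* (0.181) to *Scx*, *LOC680227* (0.142) and *Ccdc3* (0.148) to *Mkx*, *Tspan11* (0.092) and *Rcn1* (0.098) to *Tnmd*, and *Creld2* (0.108) and *Dok1* (0.117) to *Thbs4*. For the other matrix genes they were *Scrg1* (0.207) and *Tnfrsf11b* (0.25) to *Comp*, *Prelp* (0.12) and *Olfml3* (0.123) to *Cilp*, *Clec3a* (0.247) and *Arhgef19* (0.248) to *Cilp2*, *Hhipl2* (0.139) and *Steap1* (0.196) to *Prg4*, and *Scrg1* (0.254) and *Itga10* (0.282) to *Chad*. *Scrg1* was thus the nearest outside gene of both *Comp* and *Chad*, at 2.62 CPM in running rat 3, 15.9 to 29.3 CPM in the other running rats, and 5.85 to 19.9 CPM in the NC rats.

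Because *Comp*, *Chad*, and *Cilp2* ran most alike among the abundant matrix genes, the 250 bases before their listed starts are printed here, with that of *Tnmd* as the known *Scx* target that ran apart from *Scx*. The sequences are from RefSeq, build GRCr8, which is another build than the Rnor_6.0 of the counts, and are written 5′ to 3′ on the strand of the gene, with E-boxes (CANNTG, the core that factors such as scleraxis can bind) in capitals. Of the 9 genes 8 had an entry, and *Scx* had none.
Comp, chr16:19089549-19089798 (-): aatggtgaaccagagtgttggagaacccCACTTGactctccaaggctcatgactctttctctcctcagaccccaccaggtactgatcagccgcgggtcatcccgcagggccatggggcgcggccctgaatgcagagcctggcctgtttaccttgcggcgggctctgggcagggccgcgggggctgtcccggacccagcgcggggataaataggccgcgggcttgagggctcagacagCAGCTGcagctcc
Chad, chr10:80008795-80009044 (+): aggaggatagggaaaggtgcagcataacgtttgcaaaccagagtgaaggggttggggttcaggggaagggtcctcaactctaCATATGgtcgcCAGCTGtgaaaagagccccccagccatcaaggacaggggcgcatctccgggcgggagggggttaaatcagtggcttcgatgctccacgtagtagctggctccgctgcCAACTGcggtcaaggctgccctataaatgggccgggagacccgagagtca
Cilp2, chr16:19573857-19574106 (+): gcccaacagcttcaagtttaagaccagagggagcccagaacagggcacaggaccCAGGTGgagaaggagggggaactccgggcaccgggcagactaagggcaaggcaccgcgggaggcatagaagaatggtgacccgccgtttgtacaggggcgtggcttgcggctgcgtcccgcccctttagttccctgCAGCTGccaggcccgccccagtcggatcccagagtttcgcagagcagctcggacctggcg
Tnmd, chrX:101350182-101350431 (+): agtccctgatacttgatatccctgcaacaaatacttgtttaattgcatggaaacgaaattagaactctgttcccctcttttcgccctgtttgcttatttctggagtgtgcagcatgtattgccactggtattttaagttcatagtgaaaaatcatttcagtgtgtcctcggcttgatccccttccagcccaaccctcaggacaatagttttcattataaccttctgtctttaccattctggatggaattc

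The search covered both strands, on which CANNTG reads the same. E-boxes stood 222 and 13 bases before the start of *Comp*, 168, 157, and 50 bases before that of *Chad*, and 196 and 60 bases before that of *Cilp2*. The window of *Tnmd* held 0, as did both windows of *Mkx*, which has 2 listed starts. *Thbs4* held 1 E-box (95 bases before the start), *Prg4* held 1 (213 bases), and *Cilp* held 2 (212 and 92 bases). At least 1 E-box was found in 65.5% of the 33469 windows of this length in the table. The form CAGCTG, singled out after the sequences were seen, was found in *Comp* (13 bases before the start), *Chad* (157 bases), and *Cilp2* (60 bases) and in none of the other 5 genes with a window, against 12.0% of all windows. The form CAGATG, read on either strand and also counted among the E-boxes, was found in *Cilp* alone of the 8 genes and in 4673 of the 33469 windows. The TATA motif TATAAA, searched on the strand of the gene, was found in *Chad* alone, 29 bases before the start, and in 8.06% of all windows. *Comp* and *Cilp2* lie on the same chromosome, 16, on opposite strands, with 484559 bases between their starts. These are matches of letters and were not tested for binding.

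Levels of different genes were compared in FPKM (fragments per kilobase of gene length, scaled to library size), the authors' unit that corrects for length. In the NC rats *Chad* had a median of 611 FPKM (403 to 1047), at rank 148 of the genes tested, followed by *Prg4* with 441 (176 to 981), *Comp* with 324 (215 to 483), *Tnmd* with 256 (167 to 293), *Thbs4* with 238 (180 to 272), and *Cilp2* with 200 (160 to 324). These 6 genes overlapped from each neighbour to the next. A gap followed to *Scx* at 32.8 (17.9 to 38.5) and *Cilp* at 27.2 (21.2 to 35.2), which overlapped, and a further gap to *Mkx* at 5.07 (4.21 to 8.14), at rank 8989. The matrix genes other than *Cilp* were thus well above both transcription factors in every NC rat. At 12 hours p.r. the order of the medians was *Chad* (1002 FPKM), *Comp* (596), *Thbs4* (366), *Prg4* (336), *Cilp2* (306), *Tnmd* (234), *Scx* (46.6), *Cilp* (31.7), and *Mkx* (10.3). In the running rats the neighbours without overlap were *Tnmd* above *Scx* and *Cilp* above *Mkx*.

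**Figure D5:**
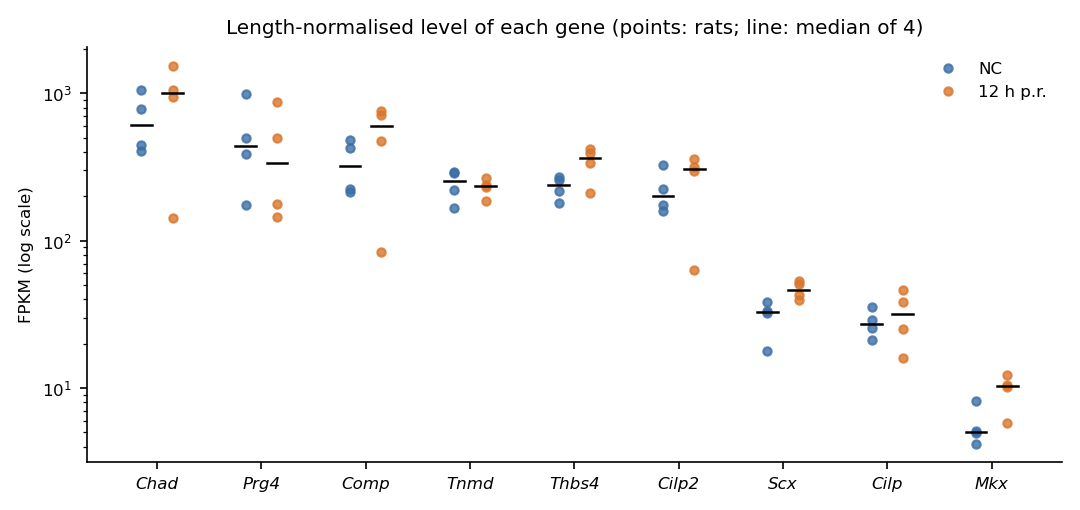
FPKM of the 9 genes on a log axis, ordered by their median in the NC rats. Points are rats (blue, NC; orange, 12 h p.r.) and lines are the medians of 4 rats. The 6 genes from *Chad* to *Cilp2* overlap in the NC rats, *Scx* and *Cilp* lie lower, and *Mkx* lies lowest.

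To place these genes in their pathway, 57 other tendon genes in 5 lists were read from the same test, of which 56 were in the table and 52 passed the filter. None passed the adjusted threshold, and their median log2 fold change was -0.06. At an unadjusted p value under 0.05 there were 1 higher and 4 lower of the 52, where 5.44% of all genes were higher and 4.08% lower. Without running rat 3, 6 were higher and 3 lower, where 5.78% of all genes were higher and 5.32% lower. The count in both directions was 9 without NC rat 2, 2 without NC rat 1, and 1 without NC rat 4. Of the TGF-beta pathway above *Scx*, 11 of 11 genes were tested, with 0 higher and 2 lower, and 2 higher and 2 lower without running rat 3. *Tgfb2*, a ligand, was at 56.2, 49.9, 49.6, and 49.3 CPM in running rats 1 to 4 and at 65.2, 57.2, 85.4, and 71.7 CPM in NC rats 1 to 4, without overlap, where 2.55% of all genes had every running rat below every NC rat. Its log2 fold change was -0.45 (SE 0.12, edgeR unadjusted p = 0.00570, adjusted p = 0.432). The coreceptor gene *Tgfbr3* was at 204 to 216 CPM in the running rats and at 225 to 309 CPM in the NC rats, also without overlap (log2 fold change -0.33, SE 0.12, edgeR unadjusted p = 0.0195, adjusted p = 0.452). The ligand gene *Tgfb3* was at 84.0, 94.8, 57.9, and 88.6 FPKM (expression per gene length) in running rats 1 to 4 and at 59.3 to 68.5 FPKM in the NC rats, so that running rat 3 was the lowest and the other running rats were above all NC rats. Its log2 fold change was 0.35 (edgeR unadjusted p = 0.0511), and 0.48 without running rat 3 (unadjusted p = 0.00128, adjusted p = 0.331). The third ligand gene, *Tgfb1*, was at 0.23 (unadjusted p = 0.214), and at 0.35 without running rat 3 (unadjusted p = 0.0288). The signs of *Tgfb2* and of the other ligand genes thus differed.

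Of 12 other regulators of the tendon lineage, 11 were tested, with 0 lower at an unadjusted p value under 0.05. *Nfatc4* was at 0.28 on the log2 scale (unadjusted p = 0.0743), and at 0.38 without running rat 3 (unadjusted p = 0.0117), and *Egr2*, an early growth response factor of tendon collagen expression, at -0.59 (unadjusted p = 0.101). Of the 15 fibril collagens, small proteoglycans, and other structural matrix genes, all were tested and 0 passed in either direction, with a median of -0.05 on the log2 scale. Without running rat 3, 2 were higher and 0 lower (*Col1a2* and *Bgn*, biglycan, the latter at 0.33, unadjusted p = 0.0433), and the median was 0.14. The smallest p values were those of *Col3a1*, type III collagen, at -0.54 (unadjusted p = 0.0723), *Col1a2*, a chain of type I collagen, at 0.39 (unadjusted p = 0.248, and 0.61 without running rat 3, with an unadjusted p = 0.0232), and *Fn1*, fibronectin, at -0.59 (unadjusted p = 0.296, and -0.31 without running rat 3).

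Of 11 genes from families related to the 9, 8 were tested, with 0 higher and 1 lower. *Thbs3*, a thrombospondin of the same pentameric subgroup as *Thbs4* and *Comp*, was at 43.2, 52.8, 27.5, and 57.7 CPM in running rats 1 to 4 and at 63.4, 60.2, 61.7, and 75.5 CPM in NC rats 1 to 4. Its groups did not overlap, and its log2 fold change was -0.52 (SE 0.21, edgeR unadjusted p = 0.0312, adjusted p = 0.487), of the opposite sign to *Thbs4* and *Comp*, and -0.35 without running rat 3 (unadjusted p = 0.0242). *Thbs1*, which belongs to the trimeric subgroup, was at 0.78 (SE 0.48, edgeR unadjusted p = 0.140), and at 1.08 without running rat 3 (unadjusted p = 0.0173). *Tcf15*, the closest relative of *Scx* on the list, was at 0.57 (SE 0.50, unadjusted p = 0.282), and at 0.16 without running rat 3, its highest rat, with 3.16 to 8.21 CPM in the running rats and 1.44 to 6.38 in the NC rats. Of 8 genes of the tendon sheath and of tendon progenitors, 7 were tested. All 7 log2 fold changes were negative, from -0.66 to -0.05 with a median of -0.36, where the median over all genes tested was 0.02. Some of the 7 were smaller in size than their own SE. The median of the 7 was -0.19 without running rat 3. With all rats, 1 of the 7 was past the unadjusted threshold. That gene, *Tppp3*, a marker of sheath progenitors, was at 72.9, 149.5, 144, and 194 CPM in running rats 1 to 4 and at 281, 186, 191, and 226 CPM in NC rats 1 to 4, with running rat 4 above NC rats 2 and 3. Its log2 fold change was -0.66 (SE 0.27, edgeR unadjusted p = 0.0379, adjusted p = 0.498, and unadjusted p = 0.0544 without running rat 3). *Fgf18* was at -0.39 (unadjusted p = 0.107) and *Cd44*, a hyaluronan receptor, at -0.36 (unadjusted p = 0.206).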

How the data were processed

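Polyadenylate mRNA of the right Achilles tendon was sequenced from 4 rats at 12 h p.r. and 4 NC rats, grouped by the sample labels. The authors aligned reads to Rnor_6.0 with HISAT2 2.1.0 and deposited whole-read counts per Ensembl gene from featureCounts 1.6.3, without normalization. Whether counting used the strand, and how reads matching several genes were treated, is not given in the sources used here. The authors also deposited FPKM values, which equal counts divided by gene length and a DESeq2 size factor per rat. A deposited table of the authors' own comparison (log2 fold changes and p-values by DESeq2 1.30.1) was not used.

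Counts were filtered with filterByExpr, scaled by TMM, and tested with the quasi-likelihood test of edgeR 4.0.16, with Benjamini-Hochberg adjustment over 13937 genes. The SE was taken from the F statistic. Library totals were 7350509 to 12951397, and intervals for single counts cover counting error only. Exact permutation tests used log2(CPM + 0.5) over 70 splits (smallest p = 0.0286). Alternatives were DESeq2 1.42.0, other scalings and filters, limma 3.58.1 on log2 FPKM, a muscle score covariate, the replicate block, and each rat left out. R 4.3.3, Python 3.11.15, and SciPy 1.17.1 were used. Scripts were tested on simulated data.

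The 9 genes and the gene lists were chosen with earlier results of these data known. The genes named are the 9, in each other tendon list those with an unadjusted p under 0.05 (at least 3 with the smallest p), the 2 nearest genes by profile, and the first 2 markers of a list where a result turns on them. *Bop1*, *Tpr*, and *Acsf2* were named because they overlap 1 of the 9 in RefSeq. *Tgfb1*, *Bgn*, *Myh7*, *Mb*, *Col1a1*, *Fmod*, *Kera*, and *Ucma* were named after their values were seen. Marker symbols *Myh4*, *Myh2*, *Atp2a1*, *Pecam1*, *Hba1*, and *Ly6a* matched no symbol in the table used here. A gene that the naming rule gives in 1 tendon list is not reported here.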

Additional observations from a re-analysis of the deposited data

Results flagged for a closer look

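In groups of 4 rats, a rat was singled out when its gap to the nearest other rat took more of the group's range than the 95% critical value of Dixon's test allows. This was applied to 42 groups, of which chance gives about 2.1, and 4 were singled out. The groups share rats and some share genes, so they are not independent. *Cilp2* in running rat 3 was at 8.01 on the log2(CPM + 0.5) scale, against 10.27 to 10.53 in the other running rats. The mean log2 CPM of the tenocyte and tendon markers, some of which are among the 9 genes, was 8.28 in the same rat, against 9.28 to 9.42. The mean log2 CPM of the bone markers was 8.14 in NC rat 3, while the rest of that group lay between 4.42 and 4.72. The mean of the leukocyte markers was 5.62 in NC rat 2, against 6.91 to 7.03. The skeletal muscle markers of running rat 3 were not singled out by this rule. Their mean log2 CPM was 11.40 there, against 7.12 to 8.01 in the other running rats. The part of these rats in the fold changes was not tested beyond leaving each rat out.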

How the results depend on the processing

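No alternative gave a gene of the 9 an adjusted p under 0.05. Of 18 alternatives, the unadjusted p stayed under 0.05 in 17 for *Scx*, 15 for *Mkx*, and 7 for *Thbs4*. The count of 3 genes at that level became 1 with the replicate block (*Scx*) and ranged from 1 to 6 as each rat was left out. The count of all genes past the adjusted threshold, 1 by edgeR, was 93 by the Wald test of DESeq2, 3 and 0 by limma on log2(FPKM + 0.1) and log2(FPKM + 1), 2 with the muscle score as a covariate, and 0 with the replicate block, with the scaling to the tendon matrix list, and without any 1 rat. The count of other tendon genes, 5, ranged from 1 to 9 without each rat. The log2 fold change of *Tnmd* was 0.15 when counts were scaled to the tendon matrix list, an alternative chosen after seeing the data that moved the median of all genes to 0.27. With the muscle score as a covariate, *Cilp2* was at -0.071, *Comp* at 0.237, and *Chad* at 0.115; by limma on log2(FPKM + 1) they were at 0.016, 0.285, and 0.149, and with the replicate block *Cilp2* was at 0.063, *Chad* at 0.26, and *Prg4* at -0.54, none past the threshold, and the median of the 9 was 0.26. As rats were left out, ranges that crossed 0 were -0.214 to 0.031 for *Tnmd*, -0.059 to 0.409 for *Cilp*, -0.896 to 0.266 for *Prg4*, and -0.072 to 0.236 for *Mkx* minus *Scx*. The cause of these changes was not tested. Samples with the same number had correlations of deviations of 0.075, -0.20, 0.13, and 0.09 for numbers 1 to 4. Not each sample correlated best with its own number. These values over all genes showed no pairing by number, but with so few rats they cannot exclude one that touches a part of the genes. With 56 reads in the lowest rat, *Mkx* has the largest counting error of the 9 genes.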
